A study of Homo sapiens with 9 samples.

Results

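The GADD45 and BTG/TOB genes encode 2 families of small proteins that slow or stop cell growth, and their expression was followed in WA09 human embryonic stem cells, an established pluripotent line. Members were the 8 genes GADD45A, GADD45B, GADD45G, BTG1, BTG2, BTG3, TOB1 and TOB2. Every probe set was taken that the platform annotation gives to exactly 1 gene, that gene being one of the 8. This found 18 of the 54675 probe sets on the array, for 7 of the 8 genes, among 19775 genes in all. BTG2 had no probe set under this rule and is not analysed here. The 9 arrays hold 3 conditions with 3 arrays each. Damage arrays carried RNA of cells exposed for 5 h to doxorubicin (DOX), an anthracycline that traps topoisomerase II on cut DNA. Differentiating arrays carried RNA of cells kept for 2 days with 1 µM retinoic acid (RA) in a medium to which no FGF was added, so they differ from the other arrays in that growth factor too. Pluripotent arrays carried RNA of untreated cells. All came from the 1 line at passages 32 to 38, grown on irradiated mouse fibroblasts or without feeders, and which culture gave which array is not stated.

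GADD45 proteins (growth arrest and DNA damage) are stress sensors without enzyme activity of their own. They bind and activate the kinase MAP3K4 at the head of the p38 and JNK cascades, and they bind PCNA, the CDK1 and cyclin B1 complex and p21. GADD45A was described as a p53 target, GADD45B as a gene of the NF-κB and TGF-β responses, and GADD45G as a cytokine-inducible member. BTG and TOB proteins share an N-terminal BTG domain that binds the CNOT7 and CNOT8 deadenylases of the CCR4-NOT complex. They thereby promote removal of poly(A) tails from mRNA, and they restrain passage from G1 into S phase. In RefSeq (GRCh38.p14) the 7 measured genes each lie on a chromosome of their own, GADD45A at chr1:67685201-67688334, GADD45B at chr19:2476127-2478257, GADD45G at chr9:89605012-89606555 and BTG1 at chr12:92140278-92145846. BTG3 lies at chr21:17593653-17612901, TOB1 at chr17:50862223-50867978 and TOB2 at chr22:41433494-41446801.

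Values are deposited log2 intensities, so a difference of 1 is a doubling. Where a gene had several probe sets, the one with the highest mean over the 9 arrays stands for it. A linear model over all 19775 genes (limma) gave each log2 change, its standard error (SE) and a Benjamini-Hochberg adjusted p, and a gene was called when that p lay below 0.05. The array medians lay between 4.62 and 4.68, and r across genes was 0.996 to 0.998 between replicate arrays. The third pluripotent array stood somewhat apart, with a limma array weight of 0.512 against 0.677 to 1.59 for the others. It held the lowest pluripotent value for 6 of the 7 measured genes. The 3′ minus 5′ difference of the ACTB control probe sets, a measure of RNA integrity, was 0.674 to 0.813 on damage arrays, 0.832 to 1.54 on differentiating arrays and 0.628 to 1.09 on pluripotent arrays, and its part in the results was not tested. Separate cultures are not named in the labels for replicate arrays, so the p-values describe variation among arrays that could be purely technical. With 3 arrays a condition, precision is limited throughout. In such bulk RNA, fewer cells expressing a gene and less RNA per cell cannot be told apart.

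The labels were checked on genes that each treatment is known to move. CDKN1A, the p21 inhibitor, was 3.71 ± 0.12 higher (log2, SE, limma adjusted p = 1.6e-08) in damage arrays than in pluripotent arrays. MDM2, the ubiquitin ligase of p53, was 2.02 ± 0.09 higher there (limma adjusted p = 1.5e-07). Both were called higher in differentiating arrays too, by 0.92 and 0.42 (limma adjusted p = 0.00063 and 0.016), so they set the treatments apart by size and not by call. In differentiating arrays CYP26A1, which degrades RA, was 1.64 ± 0.09 higher (limma adjusted p = 2.2e-06). RARB, an RA receptor, was 2.21 ± 0.15 higher there (limma adjusted p = 6.3e-06). Neither was called in damage arrays, with CYP26A1 at 0.28 (limma adjusted p = 0.072) and RARB at 0.03 (limma adjusted p = 0.92). Of 10 pluripotency markers 8 were measured, all above the median probe set in every condition. Of these, 1 fell in damage arrays (SOX2, by 0.46) and 2 fell in differentiating arrays (PRDM14 by 1.29 and NANOG by 0.34), or 1 without the third pluripotent array. PRDM14 was at −0.47 in damage arrays, lower at an unadjusted p under 0.05 but not called (limma adjusted p = 0.088). Among the others, LIN28A was at 0.25 and DNMT3B at 0.23 in differentiating arrays, higher at an unadjusted p under 0.05 but not called (limma adjusted p = 0.16 and 0.061), and the list's median change was 0.02. Over all genes, 9.6% were called lower in damage arrays and 3.32% in differentiating arrays.

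Promoters are shown for 3 genes with different responses. GADD45B rose farthest after DOX, on the probe set that stands for it, and GADD45G fell in both treatments. BTG3 rose after DOX and was not called in differentiating arrays. Each window runs from 250 bases before to 50 bases after the RefSeq start (GRCh38.p14), 5′ to 3′ on the gene's strand. The windows lie at chr19:2475877-2476176 (plus strand), chr9:89604762-89605061 (plus strand) and chr21:17612852-17613151 (minus strand). Capitals mark motif matches, which are CCAAT in the GADD45 windows and the GC box GGGGCGGGG, here on the opposite strand, in BTG3.
GADD45B: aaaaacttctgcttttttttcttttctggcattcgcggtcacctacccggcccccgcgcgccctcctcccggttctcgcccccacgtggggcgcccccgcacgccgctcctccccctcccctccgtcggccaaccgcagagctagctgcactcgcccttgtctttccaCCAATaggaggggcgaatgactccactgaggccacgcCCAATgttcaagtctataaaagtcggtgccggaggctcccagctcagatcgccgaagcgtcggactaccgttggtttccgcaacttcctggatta
GADD45G: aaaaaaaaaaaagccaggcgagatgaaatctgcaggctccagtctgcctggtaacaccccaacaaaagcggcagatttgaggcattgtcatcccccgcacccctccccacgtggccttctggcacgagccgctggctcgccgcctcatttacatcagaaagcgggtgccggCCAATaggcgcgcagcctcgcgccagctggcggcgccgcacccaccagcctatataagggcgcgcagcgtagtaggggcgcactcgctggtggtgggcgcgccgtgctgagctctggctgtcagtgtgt
BTG3: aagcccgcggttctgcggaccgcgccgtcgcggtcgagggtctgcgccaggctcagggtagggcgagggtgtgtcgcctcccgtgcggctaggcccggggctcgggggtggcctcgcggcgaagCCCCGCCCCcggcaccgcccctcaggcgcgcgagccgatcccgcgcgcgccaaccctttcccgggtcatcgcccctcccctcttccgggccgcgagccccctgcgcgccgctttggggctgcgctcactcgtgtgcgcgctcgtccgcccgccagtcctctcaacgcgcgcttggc
The GADD45B window holds CCAAT 82 and 45 bases before the start, and the GADD45G window holds it 79 bases before the start. The BTG3 window holds the GC box 126 bases before the start.

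RefSeq windows were found for 6 of the 7 measured genes, all but GADD45A, 7 windows in all since TOB1 has 2 starts, and all were searched on both strands. CCAAT was found for 4 of the 6 genes (GADD45B, GADD45G, BTG1 and TOB1), and 34.6% of all 35116 promoter windows hold it. The GC box was found for 3 of them (BTG3, TOB1 and TOB2), against 15.7% of all windows. These are counts of genes beside shares of windows, and TOB1 holds both motifs in only the second of its 2 windows. TGACGTCA (the cAMP response element, in 1.85% of all windows), TGACTCA (an AP-1 site, 4.95%) and AGGTCA (the core of nuclear receptor sites, 13.8%) gave 0 matches in the 7 windows. A single p53 decamer (6.63% of all windows), a pair of such decamers (0.0285%), the CArG box (1.29%) and the RA response element DR5 (0.0883%) gave 0 matches as well. These counts describe the letters in those windows only.

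**Figure D1:**
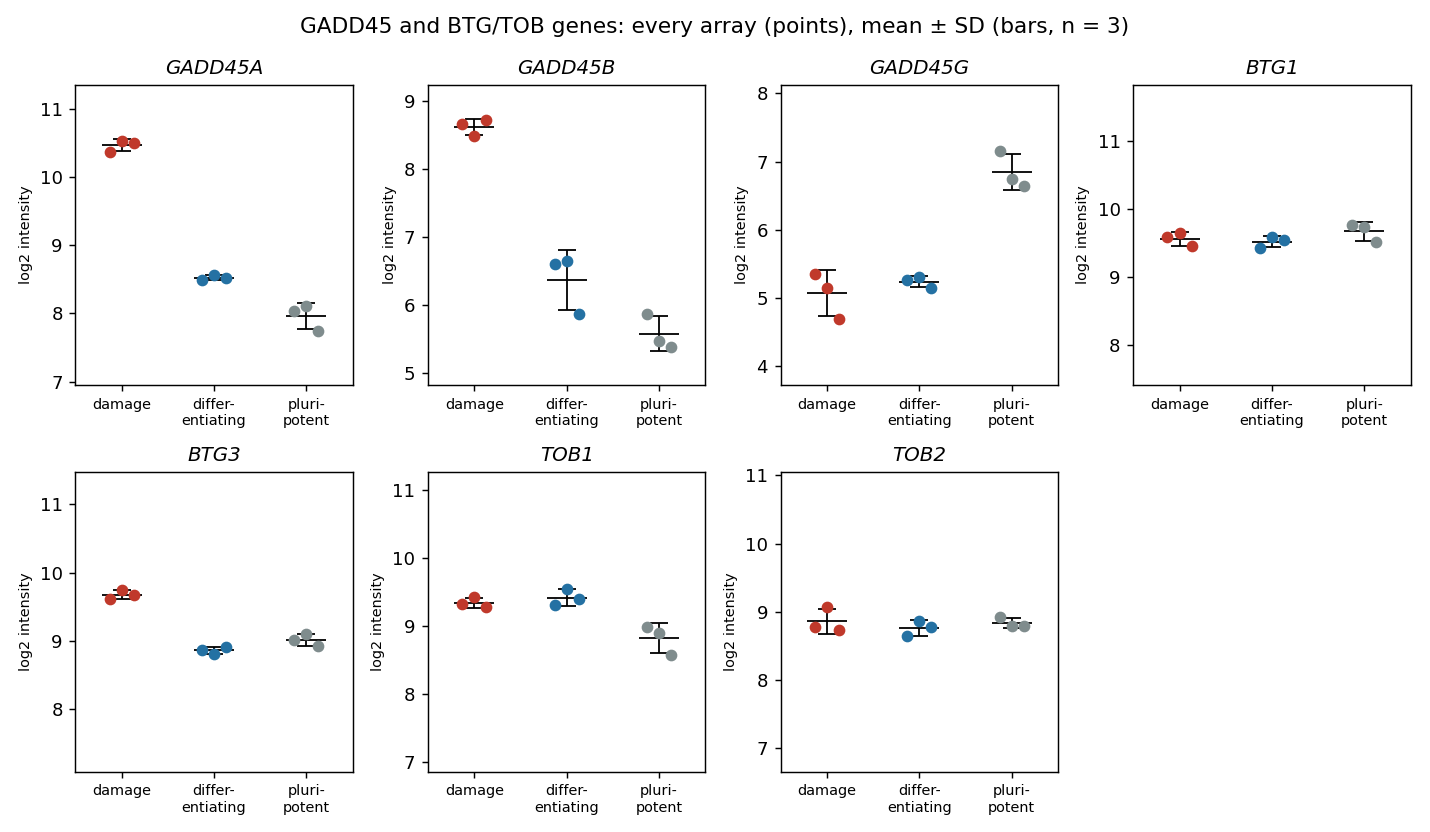
Deposited log2 intensity of the 7 measured genes on every array (points, replicates 1 to 3 from left to right), with mean ± SD of 3 arrays (bars), for damage, differentiating and pluripotent cells, every vertical axis having the same span. GADD45A and GADD45B are highest in damage arrays, GADD45G is highest in pluripotent arrays, and BTG1 and TOB2 overlap in all conditions.

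The first comparison asks how the families responded to 5 h of DOX. Of the 7 measured genes, 4 rose (GADD45A, GADD45B, BTG3 and TOB1) and 1 fell (GADD45G), while BTG1 and TOB2 were not called. Over all genes tested, 5.67% were called higher and 9.6% lower in the same comparison, and 10.5% were higher and 16.7% lower at an unadjusted p under 0.05. The median change of the 7 genes was 0.52, beside −0.0047 for all genes. Damage and pluripotent arrays did not overlap for 5 of the 7 genes, against 28.9% of all genes.

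GADD45A, the founding p53-responsive member, had log2 levels of 10.37, 10.53 and 10.50 in damage arrays, against 8.04, 8.11 and 7.75 in pluripotent arrays. The 3 damage arrays lay close together and far above every pluripotent array. The rise was 2.50 ± 0.10 (SE), or 5.66-fold (limma adjusted p = 5.3e-08), with a 95% interval of 2.29 to 2.71. It was the 34th highest of the 19775 log2 changes, and it rests on the single probe set of the gene.

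GADD45B, the member first described as a myeloid differentiation gene (MyD118), rose farther on the probe set that stands for it. Its levels were 8.65, 8.48 and 8.72 in damage arrays, against 5.87, 5.48 and 5.39 in pluripotent arrays. No damage array came near a pluripotent one. The change was 3.03 ± 0.19, or 8.20-fold (limma adjusted p = 2.4e-06), the 16th highest of all genes. Its pluripotent mean of 5.58 lay above the median probe set but below the median gene (5.96). The table carries no measure of background, so the fold may be a lower bound. GADD45B has 4 probe sets, and a fit over all 54613 probe sets that are not controls called 3 of them higher, at 3.03, 1.95 and 1.77. The other lay below the median probe set on all 9 arrays and was at 0.36 (limma adjusted p = 0.080). With probe sets of the s_at and x_at types left out, which can match several transcripts, only that one is left and the call is lost. The probe set at 3.03 stands for the gene by its mean over all 9 arrays. It leads through the damage arrays, at 8.62 against 7.69 for the one at 1.77, while its pluripotent mean is lower (5.58 against 5.92). That choice favours a large rise and a high rank. With the mean of all 4 probe sets the rise was 1.78 (limma adjusted p = 1.6e-06), below the 2.50 of GADD45A.

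GADD45G moved the opposite way. Its levels were 5.35, 5.15 and 4.70 in damage arrays, against 7.15, 6.74 and 6.64 in pluripotent arrays. All damage arrays lay far below the lowest pluripotent array. The gene fell by 1.78 (SE 0.17, limma adjusted p = 4.3e-05), or 3.43-fold, the 4th lowest change of 19775. The value rests on 1 probe set, and the damage mean of 5.07 ± 0.34 (SD, n = 3) was close to the median probe set.

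BTG3 (also called ANA), a BTG member that binds E2F1 in reports on other cells, rose modestly and with little spread. Its levels were 9.61, 9.75 and 9.67 in damage arrays, against 9.01, 9.10 and 8.93 in pluripotent arrays. The groups did not overlap. The rise was 0.67 ± 0.07, or 1.59-fold (limma adjusted p = 0.00014). Of its 4 probe sets, 3 were called higher, at 0.67, 0.70 and 0.63, and the other was at −0.08 (limma adjusted p = 0.78). That probe set had a log2 level of 4.42 to 4.80 over the 9 arrays, close to the median probe set. With s_at and x_at types left out it stands for the gene, by a slightly higher mean than the probe set at 0.63, and the call is lost, although the probe set at 0.63 is of neither type and was called (limma adjusted p = 0.00078 over all probe sets).

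TOB1, a transducer of ERBB2 that recruits the CCR4-NOT deadenylases, rose by a similar amount. Its levels were 9.33, 9.42 and 9.27 in damage arrays, against 8.99, 8.90 and 8.58 in pluripotent arrays. The lowest damage array lay above the highest pluripotent array. The rise was 0.52 ± 0.11, or 1.43-fold (limma adjusted p = 0.0084). Both probe sets were called, the other at 0.47 (limma adjusted p = 0.024 over all probe sets). Without the third pluripotent array the rise of TOB1 was 0.40 and was still called.

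BTG1, an antiproliferative gene that is abundant in resting lymphocytes, had levels of 9.58, 9.64 and 9.45 in damage arrays, against 9.77, 9.73 and 9.52 in pluripotent arrays. The groups overlapped, and the change was −0.11 ± 0.09 (limma adjusted p = 0.46). TOB2, the close relative of TOB1, had 8.78, 9.07 and 8.73 in damage arrays, against 8.93, 8.79 and 8.79 in pluripotent arrays, again overlapping. Its change was 0.02 ± 0.10 (limma adjusted p = 0.91). The 95% intervals, −0.31 to 0.08 for BTG1 and −0.20 to 0.24 for TOB2, exclude a rise as large as the 0.52 of TOB1. None of the 3 probe sets of either gene was called.

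**Figure D2:**
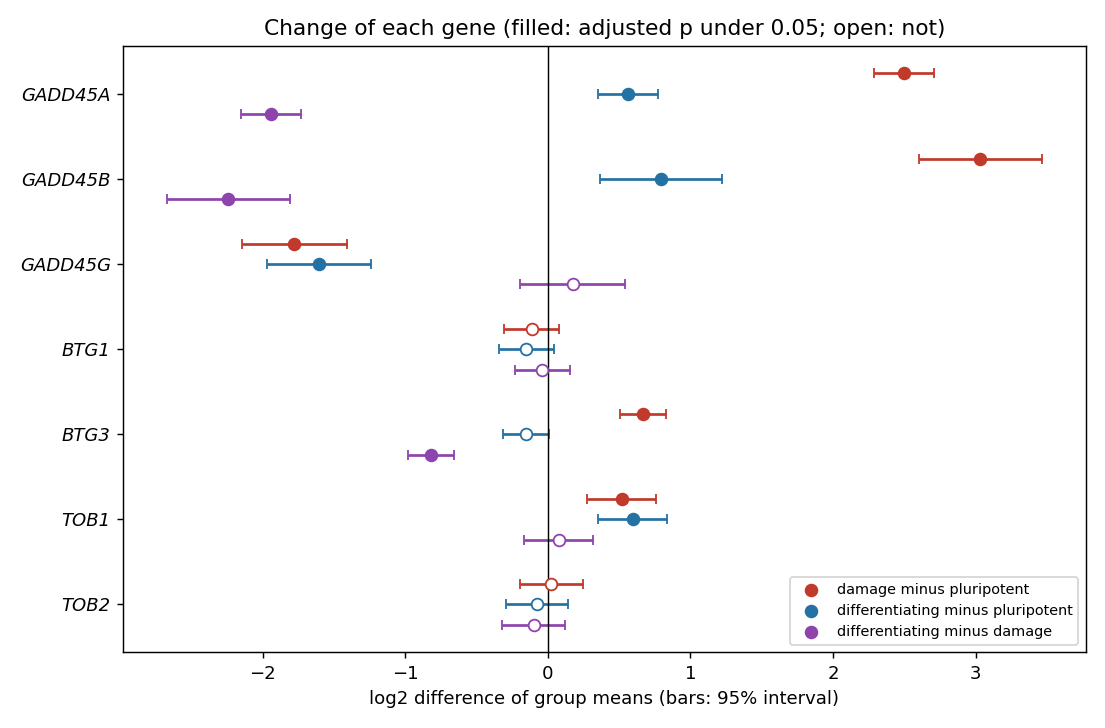
Log2 difference of group means (horizontal axis) for each of the 7 genes (rows), with 95% intervals, for damage minus pluripotent, differentiating minus pluripotent and differentiating minus damage. Filled points passed limma's test at an adjusted p below 0.05 and open points did not; GADD45A and GADD45B lie far to the right for damage, and GADD45G lies at −1.78 and −1.61 for the 2 treatments.

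The second comparison asks how cells kept for 2 days with RA and no added FGF differed from untreated cells. The parts of RA and of FGF cannot be told apart in it. In differentiating arrays 3 genes rose (GADD45A, GADD45B and TOB1) and 1 fell (GADD45G), while BTG1, BTG3 and TOB2 were not called. Over all genes, 3.16% were called higher and 3.32% lower, and 8.03% were higher and 9.4% lower at an unadjusted p under 0.05. The median change of the 7 genes was −0.08, beside −0.0041 for all genes. Differentiating and pluripotent arrays did not overlap for 4 of the 7 genes, against 22.6% of all genes. These comparisons share the pluripotent arrays, so the values of the 2 treatments are given side by side and not correlated.

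GADD45A had levels of 8.49, 8.56 and 8.52 in differentiating arrays, beside the pluripotent values of 8.04, 8.11 and 7.75. The groups did not overlap. The rise was 0.56 ± 0.10, or 1.47-fold (limma adjusted p = 0.0048). The gene was called in each of the 6 fits that left out 1 of these arrays, at 0.45 to 0.63.

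GADD45B had levels of 6.61, 6.65 and 5.87 in differentiating arrays, beside 5.87, 5.48 and 5.39 in pluripotent arrays. The first 2 differentiating arrays lay above all pluripotent arrays, and the other lay at the level of the highest of them. The change of 0.79 ± 0.19, or 1.73-fold, passed the test narrowly (limma adjusted p = 0.035). It passed in 2 of the 6 fits that left out 1 array, with values of 0.66 to 1.05, and was lost without the first or second differentiating array (adjusted p = 0.13 and 0.14) and without the second or the third pluripotent array (adjusted p = 0.12 and 0.11). None of its 4 probe sets was called when all probe sets were tested (limma adjusted p = 0.062 to 0.97).

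GADD45G had levels of 5.26, 5.31 and 5.15 in differentiating arrays, beside 7.15, 6.74 and 6.64 in pluripotent arrays. The differentiating arrays lay close together and far below every pluripotent array. The gene fell by 1.61 (SE 0.17, limma adjusted p = 0.00015), or 3.04-fold, the 26th lowest change of all genes. The differentiating mean of 5.24 lay below the median gene (5.96), on the single probe set of the gene.

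TOB1 had levels of 9.30, 9.55 and 9.39 in differentiating arrays, beside 8.99, 8.90 and 8.58 in pluripotent arrays, without overlap. The rise was 0.59 ± 0.11, or 1.51-fold (limma adjusted p = 0.0073). The second probe set gave 0.65 (limma adjusted p = 0.0080 over all probe sets), with levels of 7.73, 7.91 and 7.70 against 7.13, 7.36 and 6.91. Both probe sets thus separated the differentiating from the pluripotent arrays.

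BTG3 had levels of 8.86, 8.81 and 8.92 in differentiating arrays, just below the pluripotent values of 9.01, 9.10 and 8.93. The groups did not overlap, but the change of −0.15 ± 0.07 was not called (limma adjusted p = 0.33). BTG1 had 9.43, 9.58 and 9.55, and its change was −0.15 ± 0.09 (limma adjusted p = 0.44). TOB2 had 8.64, 8.87 and 8.77, and its change was −0.08 ± 0.10 (limma adjusted p = 0.79). Both genes overlapped with the pluripotent arrays.

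**Figure D3:**
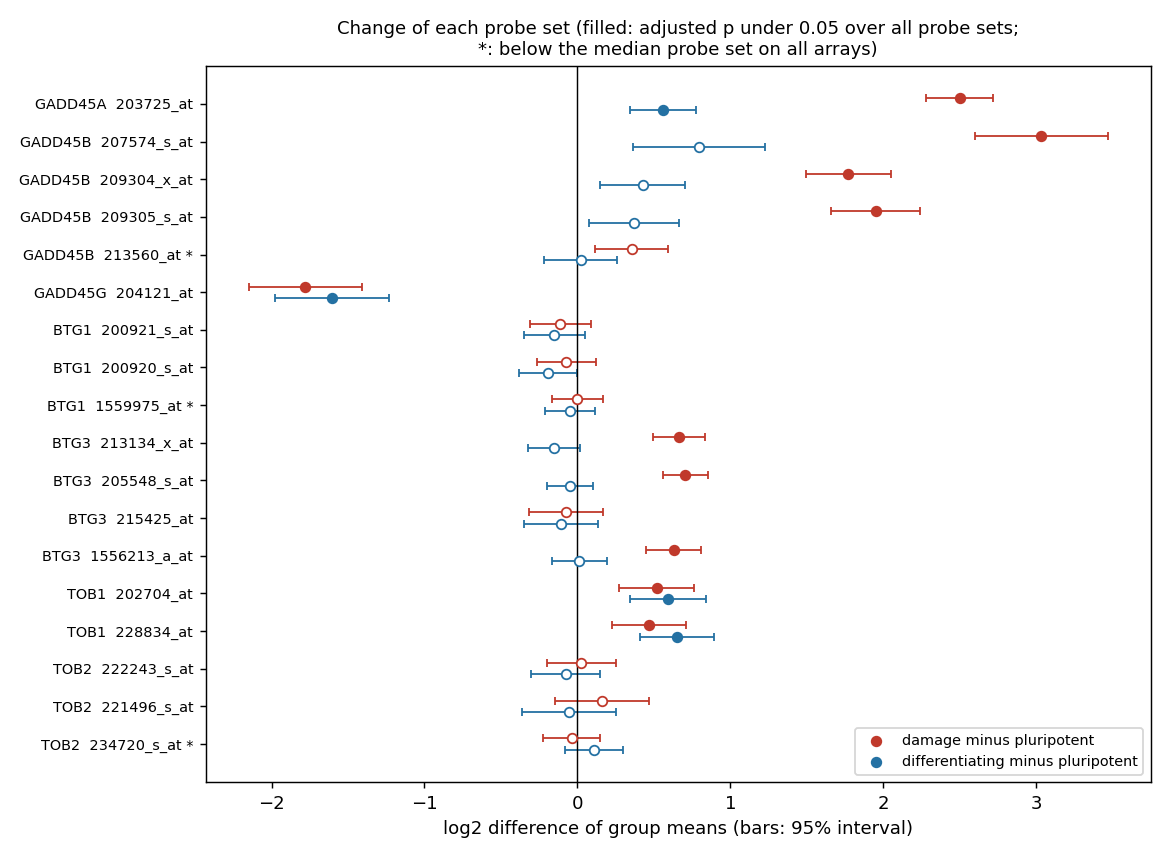
Log2 difference of group means with 95% interval for all 18 probe sets of the 7 genes (rows, by gene), for damage minus pluripotent and differentiating minus pluripotent; filled points were called over all probe sets and stars mark probe sets below the median on all arrays. In damage arrays 9 probe sets were called higher and 1 lower, and in differentiating arrays 3 higher and 1 lower.

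Across single probe sets, 9 of 18 were called higher and 1 lower in damage arrays, where 3.2% and 4.52% of all probe sets were. In differentiating arrays 3 were called higher (those of GADD45A and TOB1) and 1 lower (GADD45G), where 1.47% and 1.48% of all probe sets were. Probe sets of 1 gene share their transcripts and are not independent. Below the median on all 9 arrays lay 3 of the 18, 1 each of GADD45B, BTG1 and TOB2, and none of these was called.

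The third comparison sets the treatments against each other directly, which tests whether a gene's response differed between them. GADD45A, GADD45B and BTG3 were lower in differentiating than in damage arrays, and no measured member was called higher (limma, 0 at an unadjusted p under 0.05 as well). Among all genes, 8.62% were called lower and 12.6% higher, and 13.7% were lower and 18.2% higher at an unadjusted p under 0.05. GADD45A was lower by 1.94 (SE 0.10, limma adjusted p = 1.8e-07), or 3.84-fold, and GADD45B by 2.24 (SE 0.19, limma adjusted p = 1.5e-05), or 4.73-fold. BTG3 was lower by 0.82 (SE 0.07, limma adjusted p = 1.8e-05), or 1.76-fold. For these 3 genes the groups did not overlap, as for 34.8% of all genes.

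GADD45G and TOB1 were not called between the treatments. The difference was 0.17 for GADD45G, with a 95% interval of −0.19 to 0.54, and 0.08 for TOB1, with an interval of −0.17 to 0.32 (limma adjusted p = 0.53 and 0.70). These intervals bound how far the 2 responses can lie apart in the deposited values, and do not show that they are equal. Both GADD45G means, 5.07 and 5.24, lay below the median gene (5.96). Differences between such dim values can be compressed, so its interval may understate the true difference. In a moderated F test over the 3 conditions 5 of the 7 genes were called, beside 22.1% of all genes, the exceptions again being BTG1 and TOB2.

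The order of conditions therefore differed by gene. GADD45A ran from damage (10.47 ± 0.09, SD, n = 3) over differentiating (8.53 ± 0.03) to pluripotent (7.97 ± 0.19), each step being called. GADD45B had the same order of means, 8.62 ± 0.12, 6.37 ± 0.44 and 5.58 ± 0.26, with the step between differentiating and pluripotent arrays uncertain as described. GADD45G was at 5.07 ± 0.34 and 5.24 ± 0.08 under the 2 treatments, not called apart, and at 6.85 ± 0.27 in pluripotent arrays. TOB1 was at 9.34 ± 0.07 in damage arrays and 9.42 ± 0.12 in differentiating arrays, not called apart, and at 8.82 ± 0.22 in pluripotent arrays. BTG3 was at 9.68 ± 0.07 in damage arrays, above 8.86 ± 0.05 in differentiating and 9.01 ± 0.09 in pluripotent arrays, which were not called apart.

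Partner genes were read from the same fit. Of the p38 and JNK cascade on which GADD45 proteins act, 9 of 12 listed genes were measured, and in damage arrays 2 rose and 1 fell. Over all genes 5.67% were called higher and 9.6% lower, so the share of this list that fell is near that of all genes. The p38 delta gene MAPK13 rose by 0.40 ± 0.10 (limma adjusted p = 0.018) and MAP2K4, an activator of JNK, by 0.26. The p38 activator MAP2K6 fell by 0.38 (SE 0.11, limma adjusted p = 0.033). Without the third pluripotent array 1 rose and 0 fell. In differentiating arrays limma called 0 of the 9, with 3 higher and 1 lower at an unadjusted p under 0.05. MAPK12 was then at 0.34 (limma adjusted p = 0.14) and MAPK10 at −0.27 (limma adjusted p = 0.41). MAP3K4, the kinase that GADD45 proteins bind, was at −0.21 in damage arrays (limma adjusted p = 0.13) and at 0.22 in differentiating arrays (limma adjusted p = 0.16), with the same deposited value, 9.74, on all 3 pluripotent arrays. The list's median change was −0.0038 in damage arrays and 0.10 in differentiating arrays.

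Of 8 cell cycle and DNA partners of GADD45 proteins, all measured, 2 rose and 1 fell in damage arrays. Among all genes 5.67% were called higher and 9.6% lower there, so the share that fell is again near that of all genes. CDKN1A rose as given above, and PCNA, the DNA polymerase clamp, rose by 0.35 ± 0.08 (limma adjusted p = 0.016). Cyclin B1 (CCNB1) fell by 0.46 (SE 0.08, limma adjusted p = 0.0027), while its kinase CDK1 was at −0.20 (limma adjusted p = 0.11). In differentiating arrays CDKN1A rose by 0.92 ± 0.12 (limma adjusted p = 0.00063) and the other 7 were not called. Among all genes 3.16% were called higher and 3.32% lower in those arrays. The list's median change was −0.01 and −0.07 in the 2 treatments.

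CCR4-NOT subunits and other partners of BTG/TOB proteins were measured for 16 of 17 genes. In damage arrays 4 fell and 0 rose, with 10 lower and 0 higher at an unadjusted p under 0.05 (limma). Over all genes 9.6% were called lower there, and 16.7% were lower at an unadjusted p under 0.05. PAN3, a subunit of the other poly(A) nuclease, fell by 0.45 (SE 0.07, limma adjusted p = 0.0011). CNOT8, a deadenylase that BTG domains bind, fell by 0.42 (SE 0.09, limma adjusted p = 0.012), and CNOT3 by 0.31 (limma adjusted p = 0.049). CNOT9 fell by 0.24, and CNOT6L was at −0.29 (limma adjusted p = 0.11). CNOT7, the paralog of CNOT8, was at −0.02 (limma adjusted p = 0.90). The list's median was −0.22, beside −0.0047 for all genes. In differentiating arrays PAN3 rose by 0.26 (limma adjusted p = 0.047), a call lost without the third pluripotent array, and the list's median was 0.01.

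Transcription factors known to act on GADD45 or BTG genes were measured for 10 of 11 listed genes. In damage arrays 3 rose and 2 fell, and in differentiating arrays 0 rose and 3 fell (limma, 1 higher and 4 lower at an unadjusted p under 0.05). Over all genes 5.67% were called higher and 9.6% lower in damage arrays, and 3.16% higher and 3.32% lower in differentiating arrays. EGR1, an immediate-early factor, rose by 2.80 ± 0.16 in damage arrays (limma adjusted p = 7.4e-07) and fell by 2.34 in differentiating arrays (limma adjusted p = 5.9e-06). SMAD3, which carries TGF-β signals, rose by 1.27 in damage arrays (limma adjusted p = 5.2e-06) and was at −0.33 in differentiating arrays (limma adjusted p = 0.059). SMAD4, of the same list, fell by 0.61 in damage arrays (limma adjusted p = 0.0074) and was at −0.13 in differentiating arrays (limma adjusted p = 0.69). MYC, a repressor of GADD45A in reports on other cells, rose by 0.67 and fell by 0.96 in the 2 treatments (limma adjusted p = 0.0019 and 0.00028). FOXO1, which activates GADD45A in such reports, fell by 0.44 and 0.71 (limma adjusted p = 0.0026 and 0.00021). Its relative FOXO3 was at 0.18 in damage arrays and −0.08 in differentiating arrays (limma adjusted p = 0.12 and 0.64). Of the NF-κB genes, NFKB1 was at 0.33 and 0.18 (limma adjusted p = 0.11 and 0.53). RELA was at −0.01 and −0.12 (limma adjusted p = 0.96 and 0.60). The list's median change was 0.08 in damage arrays and −0.12 in differentiating arrays.

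**Figure D4:**
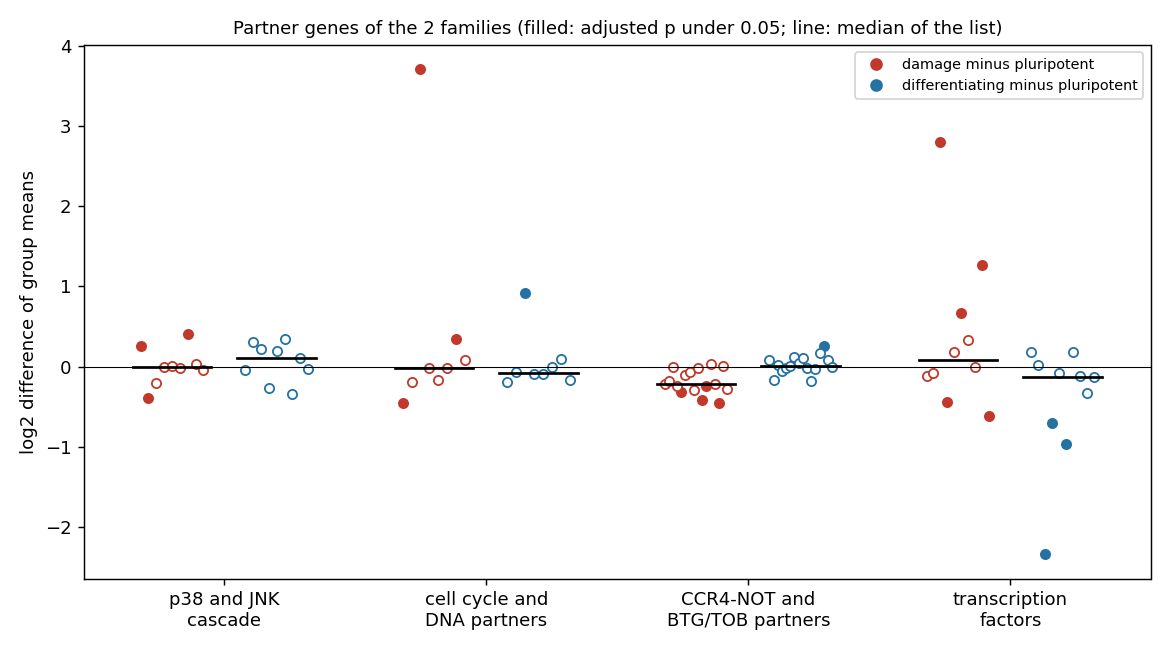
Log2 difference of group means of partner genes (points, 1 per gene) in 4 lists, for damage minus pluripotent (left in each pair) and differentiating minus pluripotent (right), with the list median as a line and called genes filled. CDKN1A at 3.71 and EGR1 at 2.80 stand highest for damage, EGR1 at −2.34 stands lowest for differentiating, and the CCR4-NOT list lies mostly below 0 for damage, with a median of −0.22.

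Genes whose pattern over the 9 arrays was most like that of a called member were sought among genes above the median level, with Pearson's r as a description. The 9 points fall into 3 conditions, so r mainly follows the condition means. Closest to GADD45A were MDM2 (r = 0.999), CDKN1A (0.996) and PIK3CD (0.996). PHLDA3 (r = 0.987), IER2 (0.987) and DRAM1 (0.987) came closest to GADD45B. The genes nearest to GADD45G were FAM149B1 (r = 0.983), NBEA (0.982) and ZBTB44 (0.974), with smaller falls of 0.44, 0.44 and 0.50 in damage arrays. BTG3 lay nearest to CHST7 (r = 0.995), LIMA1 (0.993) and FHL2 (0.992), and TOB1 to MAP4K4 (0.966), HERPUD1 (0.966) and ID2 (0.963).

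Markers of fibroblasts and stromal cells, which a stem cell culture could also hold, were read in the same way. Of 10 markers, all measured, 4 rose in damage arrays and 0 fell (TAGLN, ACTA2, COL1A1 and THY1, with 6 higher and 0 lower at an unadjusted p under 0.05 in limma), or 3 and 0 without the third pluripotent array. Over all genes 5.67% were called higher there, and 10.5% were higher at an unadjusted p under 0.05. The other 6 were not called, with POSTN at 0.27, COL3A1 at 0.25, DCN at 0.16, COL1A2 and LUM at 0.07 each and PDGFRB at −0.02. In differentiating arrays 2 rose (COL1A1 by 1.00 and COL3A1 by 0.57) and 2 fell (TAGLN by 1.76 and THY1 by 0.37). Without the third pluripotent array 2 rose and 1 fell. Among all genes 3.16% were called higher and 3.32% lower in differentiating arrays. The summed intensity of the 10 markers, on the log2 scale, was 13.19 to 13.26 in damage arrays. It was 12.07 to 12.15 in differentiating arrays and 12.09 to 12.13 in pluripotent arrays. TAGLN and COL1A1 together made up 80.2 to 81.2% of that sum in damage arrays, 68.9 to 72.3% in differentiating arrays and 66.0 to 67.6% in pluripotent arrays. LUM, at 3.12, and POSTN, at 3.50, were among 3 markers with a pluripotent mean below the median probe set, and 2 lay below it in each treatment. The part of such cells in the rise of GADD45A, GADD45B, BTG3 and TOB1 was not tested.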

How the data were processed

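RNA of WA09 cells was hybridised to 9 Affymetrix arrays of 1 colour. The deposited table holds log2 intensities per probe set (2.36 to 14.8), made by the authors with RMA and the package affy, per the submitters' processing notes, with no version named. RMA corrects background, normalises by quantiles and summarises probes, which compresses folds of dim probe sets and hides any shift that most genes share. Groups and replicate numbers come from the sample titles. Of 54675 probe sets, 62 controls were left out and 41091 had 1 gene in the platform annotation (1801 had several, 11721 none), of which 41037 matched the RefSeq gene table (GRCh38.p14) by Entrez identifier. One linear model over the 3 conditions was fitted to 19775 genes, and another to 54613 probe sets, with limma 3.58.1 in R 4.3.3 (lmFit, eBayes, 6 residual and 4.63 prior degrees of freedom, no filter), adjusted by Benjamini-Hochberg over the whole table. The fit was tested on simulated data. Members, partner lists, markers and motifs were chosen with earlier results of these data known. Named are all members, 4 check genes, up to 4 genes of each list with the largest absolute change against pluripotent cells, and the 3 genes most like each called member. MAP2K4, MAP3K4, CNOT7, CNOT9, SMAD4, DNMT3B and the stromal markers other than TAGLN, ACTA2, COL1A1 and COL3A1 were named after their values were seen. FOXO3, NFKB1 and RELA were likewise named with their values known. Alternatives were other choices of probe set, a filter on dim genes, another spread model, only the compared groups, other normalizations, array weights, a replicate block and leaving out arrays.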

Additional observations from a re-analysis of the deposited data

How the results depend on the processing

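GADD45A, GADD45G and TOB1 kept their calls and directions in both comparisons with pluripotent cells under every alternative that tested them. The rise of GADD45A in damage arrays was 2.39 to 2.57, and that of TOB1 0.40 to 0.60. Leaving out 1 array at a time left 4 members higher and 1 lower in damage against pluripotent arrays, 2 to 3 higher and 1 lower in differentiating against pluripotent arrays, and 0 higher and 3 lower in differentiating against damage arrays. Without x_at and s_at probe sets, which can match several transcripts, TOB2 had no value, 2 members were higher in damage arrays, and 1 was lower in differentiating against damage arrays. GADD45B was then at 0.36 (adjusted p = 0.053) and BTG3 at −0.076 (adjusted p = 0.74) in damage arrays, on probe sets near or below the median level, and BTG1 was at 0.00056. Among only genes above the median level GADD45G was not tested, so the members called lower numbered 0 in both comparisons with pluripotent arrays. The rise of GADD45B in differentiating arrays was called in 8 of 16 alternatives, at 0.022 to 1.05 (adjusted p = 0.0016 to 0.96). It was lost with the mean of all probe sets (0.40, adjusted p = 0.063), without x_at and s_at probe sets (0.022), over every probe set (adjusted p = 0.062) and with only the compared groups (adjusted p = 0.091). Uncalled values that changed sign were that BTG1 value and those of TOB2 in damage arrays (−0.079 to 0.087 over the fits leaving out 1 array) and, between treatments, BTG1 (−0.091 to 0.0075), TOB2 (−0.16 to 0.0038) and GADD45G (−0.012 to 0.32). Replicate numbers were not taken as pairs, since 4 of 9 same-numbered pairs, not all, had a correlation of deviations over 0.1 (range −0.10 to 0.20). Of these 9, 7 were positive, with a mean of 0.074, beside a mean of −0.037 for the 18 pairs of different numbers. Deviations from a group's mean cancel within the group, so the second mean largely follows from the first and is no independent reference. With the number as a replicate block the counts were 4 higher and 1 lower, 3 higher and 1 lower, and 0 higher and 3 lower in the 3 comparisons, as without it. The alternative without the third pluripotent array for the partner and marker lists was chosen after seeing the data.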
